A study of Homo sapiens with 3 samples.

Results

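NF-kB is a family of transcription factors that act as pairs of subunits and are held inactive in the cytoplasm by inhibitor proteins until a signal has the inhibitors degraded. NFKB1 and NFKB2 encode precursors that are shortened into DNA-binding subunits, while RELA, RELB and REL encode the subunits that carry an activation domain. NFKBIA, NFKBIB and NFKBIE encode the cytoplasmic inhibitors, BCL3 a nuclear member of the inhibitor family that can also help activate genes, and TNFAIP3 an enzyme (A20) that edits ubiquitin chains and shuts signalling off upstream. Several of these genes are known targets of NF-kB themselves, so the pathway builds its own feedback, and in the liver it serves the response to infection and injury.

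The messenger RNA of these 10 genes, 5 subunits and 5 inhibitors, was followed in Hep3B cells, a human hepatocellular carcinoma line. The genes were picked by name, with earlier results of these data known. The Ensembl identifiers of a deposited expression table of 19862 genes were matched to their symbols, and all 10 were found. All 10 passed a filter of a mean of 1 FPKM, a fragment count divided by transcript length in kilobases and by library size. There were 3 libraries, 1 per group. The HKR3 library came from cells transfected with pcDNA3.1-HKR3, a plasmid for HKR3, an older name of the telomere-binding zinc finger protein ZBTB48. The library labelled siTERT came from Hep3B cells given a small interfering RNA that targets TERT, the catalytic subunit of telomerase. The control library, titled NT-Empty, has only treatment with the transfection reagent Fugene as its treatment label. Whether it also received an empty plasmid or a nontargeting RNA cannot be read from the labels. From the labels alone, HKR3 and the delivery of a plasmid thus cannot be told apart. The same holds for the siTERT label and the delivery of an RNA. In every group the cells were the same line, unsorted, and the medium was replaced 6 h after transfection.

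Each value is a single measurement, so differences have no replicate check and carry neither a p-value nor an SD. Differences were calculated on log2(FPKM + 1) over the 10974 genes that passed the filter, and a gene was counted as different when it was at least 2-fold apart on this scale. Ratios are of FPKM as deposited, with a 95% interval that covers only the counting of estimated fragments. ZBTB48 was at 2842 FPKM in the HKR3 library, 4.89 FPKM in the library labelled siTERT and 4.91 FPKM in the control. TERT was at 4.25 FPKM in the HKR3 library, 5.37 FPKM in the library labelled siTERT and 4.69 FPKM in the control. In the library labelled siTERT, TERT was thus not below its control level, and what follows about that library goes with its label, since no loss of TERT was measured. All 9 hepatocyte markers, such as ALB and AFP, were expressed in every library, and they summed to 8207 FPKM in the HKR3 library, 11454 FPKM in the library labelled siTERT and 11557 FPKM in the control. Of 7 immune markers, PTPRC, CD3E and MS4A1 were listed at 0 in all libraries and 3 (CD14, CD68 and LYZ) had a mean of at least 1 FPKM. The immune markers summed to 243 FPKM in the HKR3 library, 441 FPKM in the library labelled siTERT and 431 FPKM in the control, and their part in the results below was not tested. Most of each sum was LYZ, at 210 FPKM in the HKR3 library, 391.9 FPKM in the library labelled siTERT and 392.5 FPKM in the control. The 3 endothelial markers analysed were listed at 0, and the 5 stromal markers summed to at most 0.273 FPKM.

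The promoters of these genes are shown first, because several of the genes are known targets of NF-kB, which binds sites named kappaB. Whether such sites have a part in the differences described below was not tested. RefSeq promoter windows of 300 bases (250 before and 50 after an annotated start, build GRCh38.p14) were at hand for 8 members, with 13 windows in all; RELB and NFKBIE were not searched. The standard kappaB consensus of 10 letters, searched on both strands, was found in 7 of the 8 members and in 8 of the 13 windows. Among all 35116 windows, 5.91% held a match, and among the 8981 genes that had a window and passed the expression filter, 8.70% held one in any of their windows. The members have more than 1 window in several cases, and genes with 3 windows held a match in 15.6% of cases. The 1 member with no match was RELA, in both of its windows. The sequences are those of members at least 2-fold higher in the HKR3 library, of NFKBIA as the best known feedback inhibitor, and of RELA as the member without a match. They run 5′ to 3′ on the gene's strand, and capitals mark the bases of a kappaB match on either strand.
TNFAIP3 (chr6:137867009-137867308, + strand): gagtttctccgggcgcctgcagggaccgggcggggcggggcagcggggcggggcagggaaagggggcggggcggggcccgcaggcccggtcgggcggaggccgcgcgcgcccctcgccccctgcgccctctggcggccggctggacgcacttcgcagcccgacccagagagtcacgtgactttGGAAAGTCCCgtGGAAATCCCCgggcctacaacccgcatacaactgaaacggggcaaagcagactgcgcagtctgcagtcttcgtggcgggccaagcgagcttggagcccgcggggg
NFKB2, second start (chr10:102394328-102394627, + strand): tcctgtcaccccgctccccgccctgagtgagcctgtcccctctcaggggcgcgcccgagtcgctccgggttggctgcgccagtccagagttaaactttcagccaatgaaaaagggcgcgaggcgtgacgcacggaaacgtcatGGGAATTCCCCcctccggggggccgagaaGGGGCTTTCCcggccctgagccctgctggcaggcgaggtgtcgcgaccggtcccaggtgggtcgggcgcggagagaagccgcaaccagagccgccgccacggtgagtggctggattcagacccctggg
NFKB2, last start (chr10:102395455-102395754, + strand): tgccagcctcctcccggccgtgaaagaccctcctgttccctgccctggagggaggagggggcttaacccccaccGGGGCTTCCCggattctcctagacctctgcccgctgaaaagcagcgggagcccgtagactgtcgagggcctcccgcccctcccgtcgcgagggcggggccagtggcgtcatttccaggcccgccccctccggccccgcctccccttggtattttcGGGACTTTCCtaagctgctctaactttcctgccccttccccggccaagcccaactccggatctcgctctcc
BCL3 (chr19:44748458-44748757, + strand): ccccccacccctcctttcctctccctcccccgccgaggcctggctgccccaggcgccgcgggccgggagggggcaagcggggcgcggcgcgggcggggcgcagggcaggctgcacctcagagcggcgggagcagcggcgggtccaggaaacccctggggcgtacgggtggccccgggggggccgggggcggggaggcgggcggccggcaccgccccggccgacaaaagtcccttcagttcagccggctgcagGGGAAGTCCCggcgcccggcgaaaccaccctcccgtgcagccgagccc
NFKBIA (chr14:35404700-35404999, - strand): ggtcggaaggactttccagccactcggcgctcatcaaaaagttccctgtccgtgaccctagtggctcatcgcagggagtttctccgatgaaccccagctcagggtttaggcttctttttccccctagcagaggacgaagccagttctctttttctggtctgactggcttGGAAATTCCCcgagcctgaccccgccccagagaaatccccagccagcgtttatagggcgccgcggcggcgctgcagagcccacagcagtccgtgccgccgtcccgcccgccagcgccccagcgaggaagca
RELA, 1 of its windows (chr11:65662867-65663166, - strand): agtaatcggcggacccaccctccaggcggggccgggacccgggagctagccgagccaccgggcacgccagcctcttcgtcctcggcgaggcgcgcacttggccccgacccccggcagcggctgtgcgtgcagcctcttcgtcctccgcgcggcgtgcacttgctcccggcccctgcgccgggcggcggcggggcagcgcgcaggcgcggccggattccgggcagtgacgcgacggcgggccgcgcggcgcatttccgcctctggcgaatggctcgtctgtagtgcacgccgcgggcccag

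The match words were shared between members. GGGAATTTCC, read on either strand, stood in the windows of 4 members (NFKB1, REL, NFKBIA and NFKBIB) and in 51 of all 35116 windows, or 0.145%. GGGACTTTCC stood in the windows of TNFAIP3 and NFKB2 and in 67 of all windows, or 0.191%. TNFAIP3 held its pair of matches side by side on the other strand, at positions -67 to -58 and -55 to -46 from the start. The second NFKB2 window held overlapping matches on both strands from -107 to -97 and another at -78 to -69, and the last held matches at -176 to -167 and -21 to -12. NFKBIA held its match at -81 to -72 and NFKB1 at -49 to -40, while the BCL3 match lay just past the start, at 3 to 12. A second form of the site, with GGG at its start, TT at letters 6 and 7 and CC at its end, overlaps the consensus at most of these places and was found in 7 of 8 members as well, and in 5.68% of all windows. A match describes these letters only and shows no binding.

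**Figure D1:**
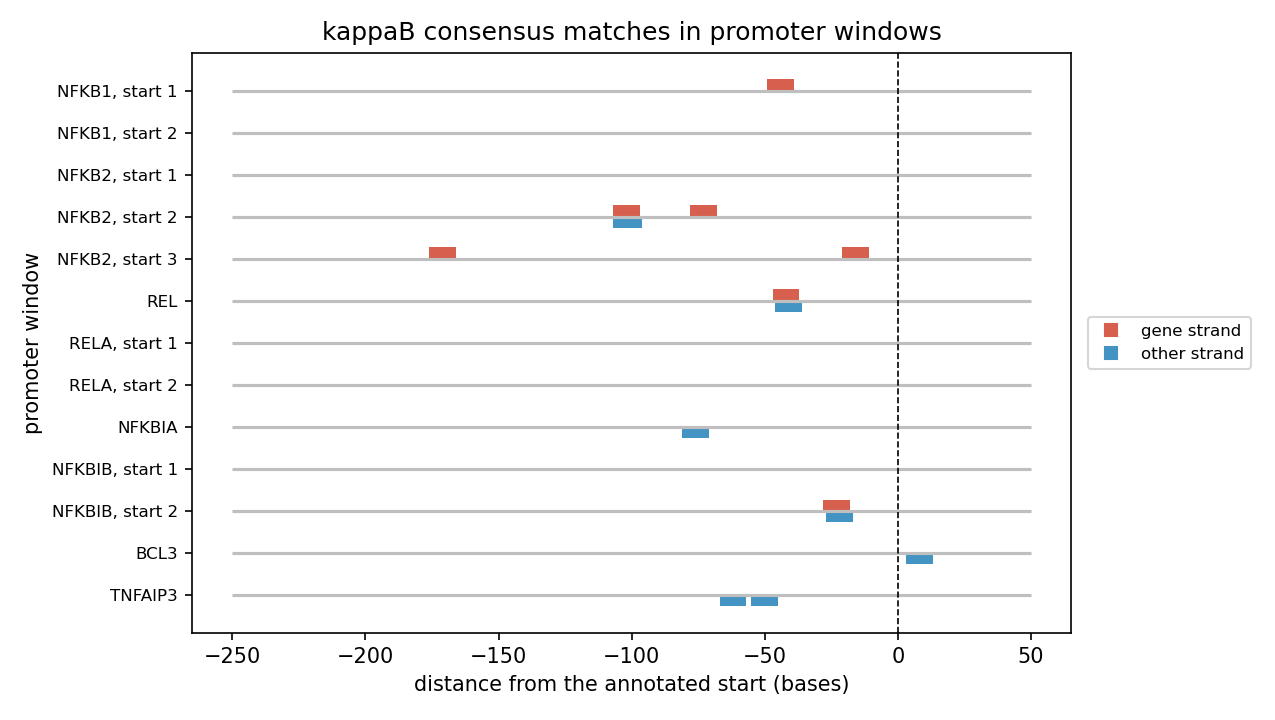
Position of each kappaB consensus match in the 13 promoter windows of 8 members; the x axis is the distance in bases from the annotated start (dashed line), grey lines are the windows, and bars are matches on the gene's strand (red) or the other strand (blue). Of the 13 windows, 8 hold a match, and both RELA windows hold none.

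In the HKR3 library all 10 genes were above the control, and the inhibitor TNFAIP3 and the subunit RELB stood far ahead of the others. TNFAIP3 had a ratio to the control of 11.3 and RELB a ratio of 8.06. With BCL3 and NFKB2, 4 of 10 were at least 2-fold higher on the log2(FPKM + 1) scale, against 5.52% of all genes tested, and 0 of 10 passed that size in the lower direction, against 2.52%. At least 1.5-fold higher were 8 of 10, against 15.3%. Above 0 stood 10 of 10, against 48.6% of all genes. Because the 10 genes were picked with earlier results of these data known, these counts describe the 10 only. In bulk RNA, a higher level per cell and a larger share of cells that express a gene cannot be told apart. The median log2 difference of the 10 was 0.90, and that of all genes tested was -0.02. Scaling every library to the same FPKM sum moved the median of all genes to 0.12 and the median of the members to 1.05, with 7 of 10 members then at least 2-fold higher, against 7.84% of all genes. The share of higher genes among all genes past 2-fold was 68.6% as deposited and 83.7% after that scaling.

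**Figure D2:**
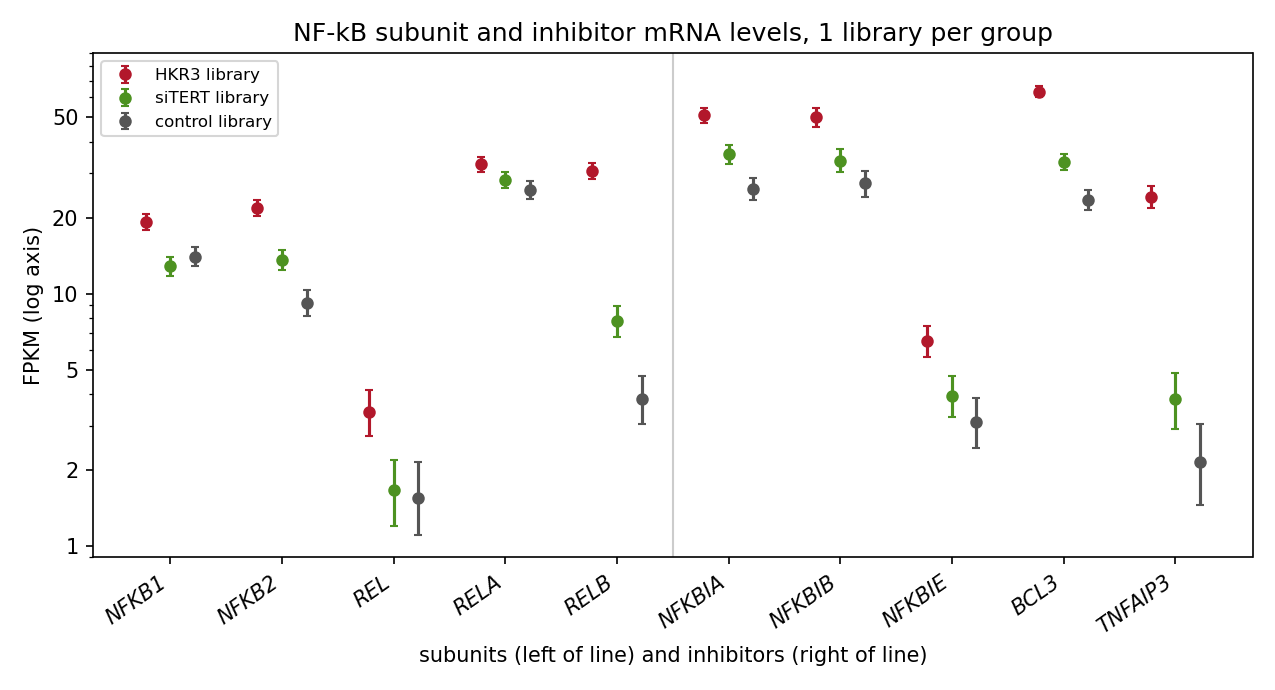
FPKM (log axis) of the 10 genes in the HKR3, siTERT-labelled and control libraries, 1 library per group; bars are 95% counting intervals on estimated fragments and do not cover variation between samples. TNFAIP3 is at 24.2 FPKM in the HKR3 library against 2.15 FPKM in the control and RELB at 30.7 FPKM in the HKR3 library against 3.82 FPKM in the control, while the RELA points all lie between 25.7 and 32.7 FPKM.

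Among the subunits, RELB, which pairs mainly with the processed NFKB2 product in the noncanonical branch of the pathway, differed most. RELB was at 30.7 FPKM in the HKR3 library, 7.78 FPKM in the library labelled siTERT and 3.82 FPKM in the control. The HKR3 library was thus far above both others, and the siTERT-labelled library, whose TERT was not below the control, lay between. The ratio of the HKR3 library to the control was 8.06, with a counting interval from 6.44 to 10.2, and 28 of 10974 genes had a larger log2 difference than the 2.72 of RELB. Its partner NFKB2 was at 21.8 FPKM in the HKR3 library, 13.6 FPKM in the library labelled siTERT and 9.17 FPKM in the control, in the same order. The NFKB2 ratio of the HKR3 library to the control was 2.38, from 2.07 to 2.74.

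Between the HKR3 library and the control, RELA and NFKB1 of the canonical branch differed less. RELA, the main activating subunit, was at 32.7 FPKM in the HKR3 library, 28.2 FPKM in the library labelled siTERT and 25.7 FPKM in the control. Its ratio of 1.27 between the HKR3 library and the control, with an interval from 1.14 to 1.41, was the smallest of the 10. NFKB1 was at 19.2 FPKM in the HKR3 library, 12.9 FPKM in the library labelled siTERT and 13.997 FPKM in the control. The order of the last 2 is not resolved, since the NFKB1 ratio of the library labelled siTERT to the control was 0.918, from 0.812 to 1.04. REL, best known from lymphocytes, was the weakest member, at 3.39 FPKM in the HKR3 library, 1.66 FPKM in the library labelled siTERT and 1.54 FPKM in the control. Its ratio of the HKR3 library to the control was 2.19 as deposited, from 1.48 to 3.26, but its log2 difference with the pseudocount was 0.79 and under 2-fold. That interval holds the NFKB2 ratio of 2.38, so REL was not resolved from NFKB2 in size of difference. In GENCODE v29, 43.3% of the exon bases of REL lie in AC010733.2, a noncoding gene on the same strand, and reads of both cannot be told apart there.

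The make-up of the subunit messenger RNA pool therefore differed between the libraries. The 5 subunits summed to 108 FPKM in the HKR3 library, 64.2 FPKM in the library labelled siTERT and 54.3 FPKM in the control. RELB took 28.5% of this sum in the HKR3 library, 12.1% in the library labelled siTERT and 7.03% in the control. RELA took 30.3% in the HKR3 library, 44.0% in the library labelled siTERT and 47.4% in the control. The RELA to RELB ratio was thus 1.06 in the HKR3 library, 3.63 in the library labelled siTERT and 6.74 in the control. Together, RELB and NFKB2 made up 48.7% of the pool in the HKR3 library, 33.4% in the library labelled siTERT and 23.9% in the control. The NFKB1 to NFKB2 ratio was 0.881 in the HKR3 library, 0.943 in the library labelled siTERT and 1.53 in the control. Counting error does not resolve the order of this pair in the library labelled siTERT. These shares are ratios within a library, so the scaling between libraries does not enter, and FPKM makes the genes comparable per length.

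**Figure D3:**
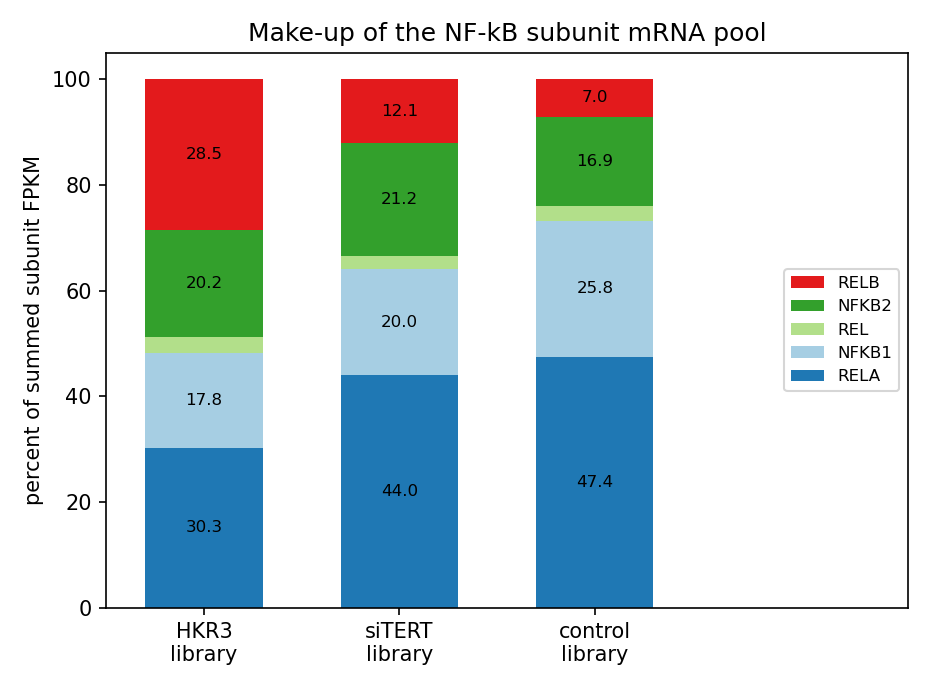
Share of the summed FPKM of the 5 NF-kB subunit genes (y axis, percent) in the HKR3, siTERT-labelled and control libraries, 1 library each. RELB takes 28.5% in the HKR3 library, 12.1% in the library labelled siTERT and 7.03% in the control, while RELA takes 30.3% in the HKR3 library, 44.0% in the library labelled siTERT and 47.4% in the control.

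Among the inhibitors, TNFAIP3 had the largest difference of all members. TNFAIP3 was at 24.2 FPKM in the HKR3 library, 3.82 FPKM in the library labelled siTERT and 2.15 FPKM in the control. The HKR3 library stood far above both others. The ratio of the HKR3 library to the control was 11.3, with a counting interval from 7.85 to 16.9 that rests on an estimated 391 fragments in the HKR3 library and 31 in the control. On the log2(FPKM + 1) scale the difference was 3.002, and 14 of 10974 genes had a larger one. BCL3 was at 63.3 FPKM in the HKR3 library, 33.2 FPKM in the library labelled siTERT and 23.6 FPKM in the control. It was the highest of the 10 genes in the HKR3 library and the fourth in the control, and its ratio of the HKR3 library to the control was 2.68, from 2.42 to 2.98.

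The 3 cytoplasmic inhibitors stayed near each other in size of difference. NFKBIA, the inhibitor that signals degrade first and that is then made anew, was at 50.9 FPKM in the HKR3 library, 35.6 FPKM in the library labelled siTERT and 26.1 FPKM in the control. NFKBIB was at 50.004 FPKM in the HKR3 library, 33.7 FPKM in the library labelled siTERT and 27.3 FPKM in the control. NFKBIE was the weakest of them, at 6.48 FPKM in the HKR3 library, 3.94 FPKM in the library labelled siTERT and 3.09 FPKM in the control. All 3 were highest in the HKR3 library and lowest in the control. Their log2 differences of 0.94, 0.85 and 0.87 between the HKR3 library and the control were under 2-fold, and their ratios were 1.95, 1.83 and 2.09. They summed to 107 FPKM in the HKR3 library, 73.3 FPKM in the library labelled siTERT and 56.5 FPKM in the control. Set over the subunit sum of the same library, this was 0.996 in the HKR3 library, 1.14 in the library labelled siTERT and 1.04 in the control. Cytoplasmic inhibitor and subunit messenger RNA thus stayed near parity in each library. NFKBIA made up 47.4% of the inhibitor sum in the HKR3 library, 48.6% in the library labelled siTERT and 46.1% in the control.

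The order of the levels also differed. From high to low it was BCL3, NFKBIA, NFKBIB, RELA, RELB, TNFAIP3, NFKB2, NFKB1, NFKBIE and REL in the HKR3 library. In the library labelled siTERT it was NFKBIA, NFKBIB, BCL3, RELA, NFKB2, NFKB1, RELB, NFKBIE, TNFAIP3 and REL. In the control it was NFKBIB, NFKBIA, RELA, BCL3, NFKB1, NFKB2, RELB, NFKBIE, TNFAIP3 and REL. Neighbours whose ratio within the library has a counting interval that includes 1, so that their order is not resolved, were NFKBIA and NFKBIB, RELA and RELB, and TNFAIP3 and NFKB2 in the HKR3 library. NFKB2 and NFKB1 were close there, with a ratio of 1.13 from 1.03 to 1.26. In the library labelled siTERT these were NFKBIA and NFKBIB, NFKBIB and BCL3, NFKB2 and NFKB1, and NFKBIE and TNFAIP3. In the control these were the 4 highest genes, each with its neighbour, and the 4 lowest. TNFAIP3 lay above 67.1% of all genes tested in the HKR3 library and above 10.2% in the control. RELB lay above 73.2% in the HKR3 library and above 20.2% in the control.

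The library labelled siTERT, in which TERT was not lower, differed far less from the control. On the log2(FPKM + 1) scale none of the 10 genes was at least 2-fold higher or lower, against 0.282% and 0.2% of all genes tested. At least 1.5-fold higher were 2 of 10, RELB and TNFAIP3, against 1.69% of all genes. Above 0 stood 9 of 10, against 47.4%. The median log2 difference of the 10 was 0.36, and that of all genes -0.01. RELB had the largest difference, 0.87, with a ratio of 2.04 from 1.57 to 2.65, and 45 of 10974 genes had a larger difference. The TNFAIP3 ratio was 1.78, from 1.14 to 2.83, the NFKB2 ratio 1.49, from 1.28 to 1.73, the BCL3 ratio 1.41, from 1.26 to 1.58, and the NFKBIA ratio 1.37, from 1.20 to 1.56. NFKBIB followed with a ratio of 1.23, from 1.05 to 1.45. The intervals of the other 4, NFKB1, REL, RELA and NFKBIE, include 1, so their differences from the control lie within counting error. For all 10 genes, variation between samples was not measured, so an interval that leaves out 1 shows no more than that counting error is exceeded.

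Both differences use the same control library, so a low or high value there enters both, and the values are given side by side only. Against the control, RELB differed by 2.72 with HKR3 and by 0.87 with the siTERT label, and TNFAIP3 by 3.002 with HKR3 and 0.62 with the siTERT label. NFKB1 was the 1 member with opposite signs, at 0.43 with HKR3 and -0.11 with the siTERT label. A comparison without the control sets the HKR3 library over the library labelled siTERT. There 2 of 10 genes, TNFAIP3 and RELB, were at least 2-fold higher, against 4.11% of all genes, and 0 lower, against 1.38%. At least 1.5-fold higher were 6 of 10, against 12.9%. Above 0 were 10 of 10, against 49.4% of all genes. TNFAIP3 had a ratio of 6.33, from 4.87 to 8.48, and RELB of 3.95, from 3.38 to 4.65. RELA had the smallest, 1.16, from 1.05 to 1.28. The median log2 difference was 0.62 for the 10 genes and -0.01 for all genes. After scaling to the same sum the share of higher genes among all genes past 2-fold was 85.4%, against 74.9% as deposited.

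**Figure D4:**
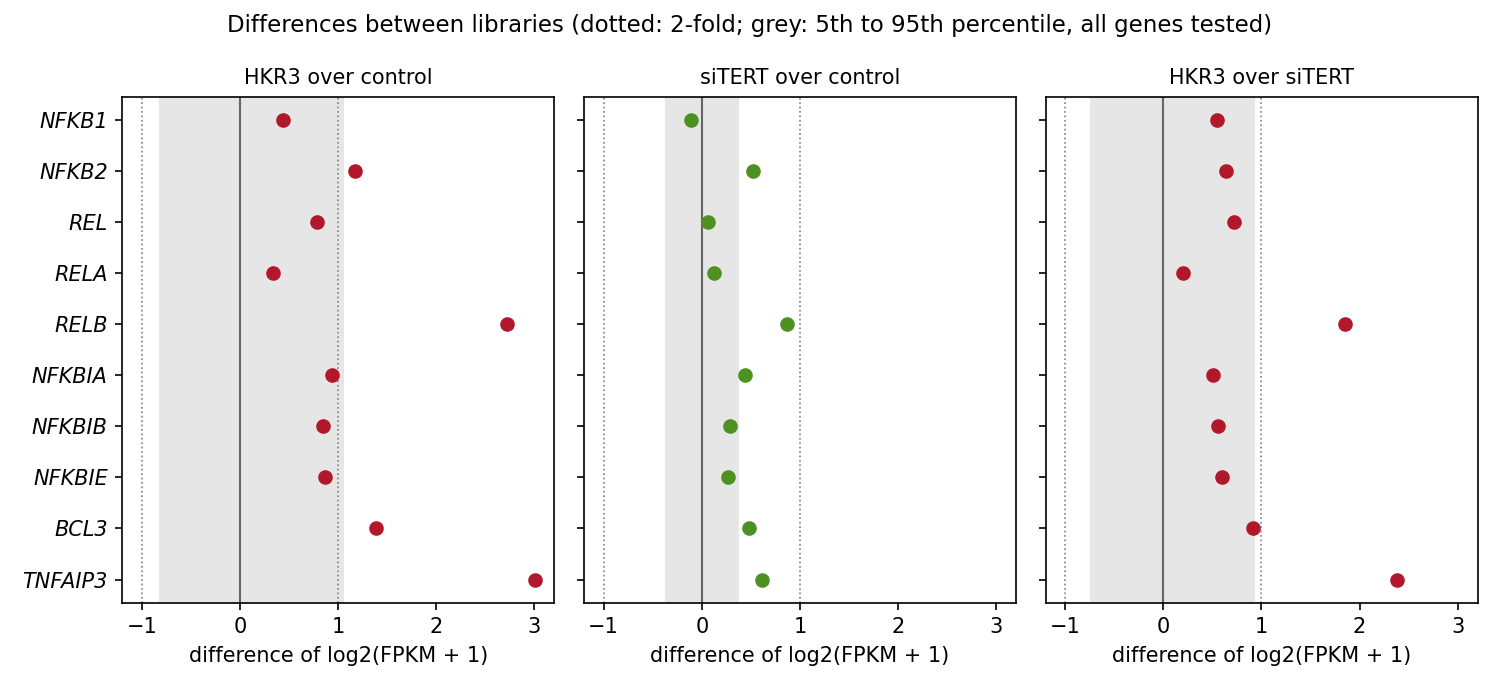
Difference of log2(FPKM + 1) for the 10 genes in 3 comparisons: HKR3 over control, siTERT-labelled over control, and HKR3 over siTERT-labelled; the grey band spans the 5th to the 95th percentile of the 10974 genes tested and dotted lines mark 2-fold. TNFAIP3 (3.002) and RELB (2.72) lie farthest from 0 in the first comparison, and the first 2 comparisons share the control library.

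The rest of the pathway was described through 6 lists with 101 other genes, of which 63 passed the expression filter. The lists were chosen with earlier results of these data known, so their counts are no independent support. Of the 63, 18 were at least 2-fold higher in the HKR3 library than in the control and 1 was at least 2-fold lower, against 5.52% and 2.52% of all genes tested, with a median log2 difference of 0.38. In the library labelled siTERT, 2 were at least 2-fold higher and 0 lower, against 0.282% and 0.2% of all genes, with a median of 0.24. IKBKE was not analysed here, and SOD2 was matched through its GENCODE v29 name.

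Of the 11 ligands that start NF-kB signalling, 1 passed the filter, and IL1A, CD40LG, TNFSF11 and TNFSF14 were listed at 0 in all libraries. IL18, the measured one, was at 61.6 FPKM in the HKR3 library, 49.0 FPKM in the library labelled siTERT and 36.9 FPKM in the control, under 2-fold in each comparison. TNF was at 0.149 FPKM in the HKR3 library, listed at 0 in the library labelled siTERT and at 0.0559 FPKM in the control. Of 16 receptors, 6 were measured and 1 was at least 2-fold higher in the HKR3 library, against 5.52% of all genes. This was TNFRSF12A, the receptor for the cytokine TWEAK that feeds both branches, at 200 FPKM in the HKR3 library, 72.0 FPKM in the library labelled siTERT and 41.5 FPKM in the control. Its ratio of the HKR3 library to the control was 4.81, from 4.22 to 5.49. TNFRSF1A, the main TNF receptor, named here after its values were seen, was at 38.5 FPKM in the HKR3 library, 78.8 FPKM in the library labelled siTERT and 59.0 FPKM in the control. Of the 6 measured receptors, it alone was at least 2-fold lower in HKR3 over the siTERT-labelled library, against 1.38% of all genes. Its ratio was 0.488, from 0.442 to 0.540, and the difference was under 2-fold after scaling to the same sum. IL1RAP, a coreceptor for interleukin 1, was at 13.7 FPKM in the HKR3 library, 14.6 FPKM in the library labelled siTERT and 10.5 FPKM in the control.

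Adaptors and ubiquitin ligases, which link receptors to kinases, had a median log2 difference of 0.05 between the HKR3 library and the control, with 1 of 15 at least 2-fold higher, a share near the 5.52% of all genes, and 0 lower. IRAK2, a kinase-like adaptor of interleukin 1 and Toll-like receptors, was at 29.3 FPKM in the HKR3 library, 11.5 FPKM in the library labelled siTERT and 7.995 FPKM in the control. IRAK4, its upstream kinase, was at 3.03 FPKM in the HKR3 library, 5.12 FPKM in the library labelled siTERT and 3.82 FPKM in the control. Kinases and their partners had a median of 0.12, with 2 of 10 at least 2-fold higher, against 5.52% of all genes. MAP3K14, the kinase NIK that starts NFKB2 processing, was at 5.17 FPKM in the HKR3 library, 1.62 FPKM in the library labelled siTERT and 1.08 FPKM in the control. Its ratio of the HKR3 library to the control was 4.77, from 3.49 to 6.58, and 12.3% of its exon bases overlap an antisense gene, MAP3K14-AS1, in GENCODE v29. TAB2, which couples ubiquitin chains to the kinase MAP3K7, was at 40.0 FPKM in the HKR3 library, 18.2 FPKM in the library labelled siTERT and 19.5 FPKM in the control, at the 2-fold limit with a log2 difference of 1.001. Its relative TAB3 was at 12.4 FPKM in the HKR3 library, 14.6 FPKM in the library labelled siTERT and 10.7 FPKM in the control. The core kinase subunits CHUK, IKBKB and IKBKG had log2 differences of 0.07, -0.12 and 0.05 between the HKR3 library and the control, and IKBKG shares 27.9% of its sequence with IKBKGP1 in units of 31 bases.

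Other inhibitors had 3 of 13 genes at least 2-fold higher and 1 lower in the HKR3 library than in the control. The shares of all genes were 5.52% and 2.52%, and the median log2 difference of the list was 0.47. OTUD7B, a deubiquitinating enzyme that restrains the noncanonical branch, was at 12.3 FPKM in the HKR3 library, 3.998 FPKM in the library labelled siTERT and 2.95 FPKM in the control. ZC3H12A, an RNase that degrades inflammatory messenger RNAs, was at 20.1 FPKM in the HKR3 library, 6.47 FPKM in the library labelled siTERT and 5.62 FPKM in the control. Both were highest in the HKR3 library, with ratios to the control of 4.18, from 3.66 to 4.79, and of 3.58, from 2.995 to 4.30. NFKBIZ, a nuclear inhibitor protein related to BCL3, was at 27.6 FPKM in the HKR3 library, 17.1 FPKM in the library labelled siTERT and 11.9 FPKM in the control. NFKBID, another nuclear relative, went the other way and was at 0.806 FPKM in the HKR3 library, 2.71 FPKM in the library labelled siTERT and 2.82 FPKM in the control. The NFKBID ratio of 0.286, from 0.153 to 0.513, rests on an estimated 16 fragments in the HKR3 library and 50 in the control. COMMD1, which promotes the turnover of RELA, was at 9.15 FPKM in the HKR3 library, 8.18 FPKM in the library labelled siTERT and 12.6 FPKM in the control, and shares 34.8% of its sequence with other genes.

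Known NF-kB target genes, with the 10 members left out, had 11 of 18 measured genes at least 2-fold higher and 0 lower in the HKR3 library, against 5.52% and 2.52% of all genes. Their median log2 difference was 1.20, with 17 of 18 above 0. Because this list was chosen with earlier results of these data known, its counts describe the list only. In the siTERT-labelled library, without a lower TERT, 2 of 18 were at least 2-fold higher, against 0.282% of all genes, and the median was 0.54. These were CXCL8 and CXCL1, which encode chemokines that attract neutrophils. CXCL8 had a log2 difference from the control of 4.42 for HKR3 and 1.94 for the siTERT-labelled library, and CXCL1 of 1.89 for HKR3 and 1.16 for the siTERT-labelled library. The related CXCL5 was at 140 FPKM in the HKR3 library, 77.7 FPKM in the library labelled siTERT and 43.5 FPKM in the control. CXCL3 was at 19.2 FPKM in the HKR3 library, 3.90 FPKM in the library labelled siTERT and 2.27 FPKM in the control. CXCL1, CXCL2 and CXCL3 share 14.4%, 22.4% and 9.54% of their sequence with other genes, mainly within this trio, so reads may be split between them. CXCL2 had a ratio to the control of 19.2 in the HKR3 library and 2.03 in the siTERT-labelled library, and the ratio of the HKR3 library to the control had an interval from 11.8 to 31.4. RND1, a small GTPase that loosens cell adhesion, was at 16.4 FPKM in the HKR3 library, 3.79 FPKM in the library labelled siTERT and 3.87 FPKM in the control. The targets CCL2, CCL5, SELE, BCL2A1 and MMP9 were listed at 0 in all libraries.

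**Figure D5:**
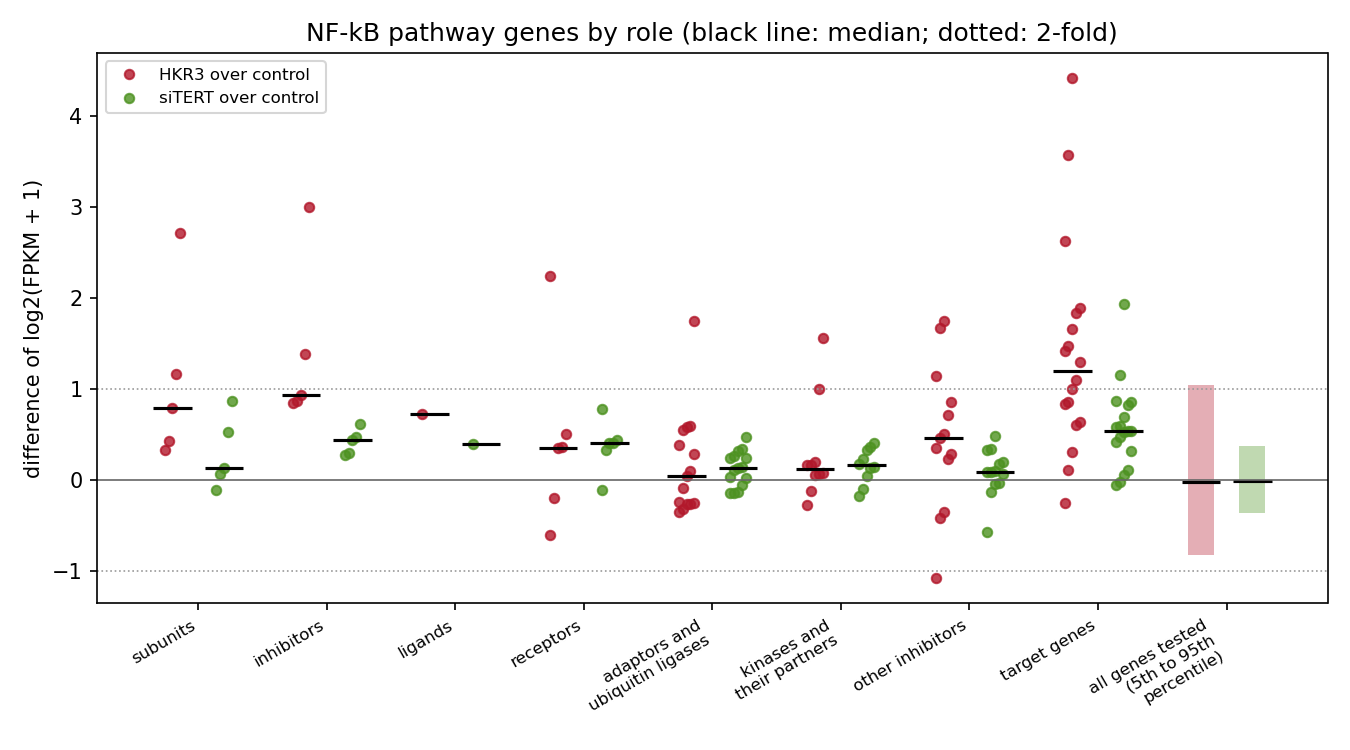
Difference of log2(FPKM + 1) from the control for every measured gene of 8 NF-kB lists in the HKR3 library (red) and the library labelled siTERT (green); each point is a gene, black lines are medians, dotted lines mark 2-fold, and the bars at the right span the 5th to the 95th percentile of all genes tested. The target genes reach 4.42 in the HKR3 library, at a median of 1.20, while adaptors and kinases have medians of 0.05 and 0.12.

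The genes whose pattern was most like those of TNFAIP3 and RELB were sought as the nearest in both log2 differences from the control, by Euclidean distance, which covers 3 libraries. Nearest to TNFAIP3 were DUSP10, ARL14, THBS1, ANKRD1 and KLF4, at distances of 0.11 to 0.27. ARL14, ANKRD1 and KLF4 were under 1 FPKM in both the library labelled siTERT and the control. They passed the filter through the HKR3 library alone, and their distances depend on the pseudocount. ANKRD1 was at 9.23 FPKM in the HKR3 library, 0.930 FPKM in the library labelled siTERT and 0.123 FPKM in the control. DUSP10, a phosphatase of MAP kinases, was at 13.6 FPKM in the HKR3 library, 1.62 FPKM in the library labelled siTERT and 0.847 FPKM in the control. Nearest to RELB were MYOF, BMP2, MAFF, KLF4 and CXCL3, at distances of 0.25 to 0.30. BMP2, a growth factor of the TGF-beta family, was at 87.1 FPKM in the HKR3 library, 21.5 FPKM in the library labelled siTERT and 13.6 FPKM in the control. KLF4 was in both lists, and CXCL3 is also one of the target genes above.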

How the data were processed

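RNA sequencing of Hep3B cells gave 1 library in each of 3 groups, assigned from titles and treatment labels. The deposited table holds the FPKM of each gene from the authors. The submitters' processing notes name hg19, Cuffdiff 2.2.1, Cufflinks and STAR 2.5.0. Their settings, the use of strand in counting and any scaling between libraries were not given in the sources used here. Libraries were made with a stranded kit, per the labels' protocols.

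Symbols were matched for 19120 of 19869 entries, entries sharing a symbol were summed, and 4 short noncoding RNAs were left out. Differences of log2(FPKM + 1) were calculated with NumPy 2.4.6 and pandas 2.3.3 over genes whose mean reached 1 FPKM; the pseudocount understates differences of weak genes. With 1 library per group, a 2-fold size rule replaced a test. The calculation was run on simulated data with large planted differences in genes with many fragments. This checks the code only and does not cover small differences or weak genes.

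Depth was estimated from the FPKM worth of 1 fragment in low genes with 1 transcript of at least 1000 bases (GENCODE v29): 1.13e+07 fragments in the HKR3 library, 1.14e+07 in the library labelled siTERT and 1.02e+07 in the control. Only 63 of 172, 72 of 163 and 66 of 150 low genes lay within 25% of 1 fragment, so the estimates are rough. Exact 95% binomial (ratios) and Poisson (levels) intervals use the shortest coding transcript and cover counting error only.

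The 10 members and the lists were chosen with earlier results of these data known, so patterns shown before are no independent support. Named genes were the members, list genes at least 2-fold apart in HKR3 over control (at most 6 per list), the 2 per list with the largest difference in the library labelled siTERT, and the 5 genes nearest to each of the 2 most different members; TNFRSF1A, CHUK, IKBKB and the genes listed at or near 0 were named outside this rule. Alternatives were 2 pseudocounts, 2 filters, 2 scalings, a 1.5-fold rule and a second promoter motif.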

Additional observations from a re-analysis of the deposited data

How the results depend on the processing

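No paired analysis was possible because each group holds 1 library, and no replicate could be left out for the same reason. Of 68 values of single members under the alternatives in each comparison, 62 lay within the counting interval of the deposited ratio for HKR3 over control, 67 for the library labelled siTERT over control and 64 for HKR3 over the library labelled siTERT, and 0 changed sign. The 2 filters and the 1.5-fold rule cannot change the difference of a member. Their values, counted among the 68, repeat the main ones and say nothing about stability. The 6, 1 and 4 outside all came from a pseudocount of 5 FPKM, which gave, on the log2 scale, 2.03 for TNFAIP3, 2.02 for RELB, 1.26 for BCL3, 0.92 for NFKB2, 0.50 for NFKBIE and 0.36 for REL in HKR3 over control, and 0.54 for RELB in the library labelled siTERT over control.

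The count of members at least 2-fold higher in HKR3 over control was 4, against 5.52% of all genes. It was 7 after scaling to the same sum, against 7.84%, and 8 with a 1.5-fold rule, against 15.3%. With a pseudocount of 0.1 FPKM it was 6, against 7.96%, and with 5 FPKM it was 3, against 2.17%. In the library labelled siTERT over control it was 0, against 0.282%. It was 1 there with a pseudocount of 0.1 FPKM (RELB), against 0.939%, and 2 with the 1.5-fold rule, against 1.69%. In HKR3 over the library labelled siTERT it was 2, against 4.11%. It was 3 there after scaling to the same sum, against 5.46%, and 6 with the 1.5-fold rule, against 12.9%. Requiring a mean of 5 FPKM left 8 members and kept these counts within 1.5 times. With a pseudocount of 5 FPKM, the counts over all genes in HKR3 over control were 238 higher and 93 lower, against 606 and 277; they were 874 and 488 with a pseudocount of 0.1 FPKM, and 860 and 167 after scaling to the same sum. For the library labelled siTERT over control they were 31 and 22, but 103 and 57 with a pseudocount of 0.1 FPKM and 10 and 3 with 5 FPKM. With a pseudocount of 5 FPKM, 0 kinases were past 2-fold in HKR3 over control, against 2, and 0 of the other inhibitors were lower, against 1. For target genes, the count higher in the library labelled siTERT was 4 with a pseudocount of 0.1 FPKM and 1 with 5 FPKM, against 2. The shares of all genes were 0.939%, 0.0911% and 0.282% in the same order. The second form of the kappaB site gave the same count of members with a match, 7. Depth limits the weakest members most: REL and TNFAIP3 rest on an estimated 38 and 31 fragments in the control.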
